A study of Mus musculus with 12 samples.

Results

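The replication genes described here are 41 genes whose products copy DNA in S phase. They were listed by name, with earlier results of these data known. A member is a row of the deposited count table that carries the symbol of one of the 41. All 41 were found among the 18068 genes of the table, and all 41 passed the filter on low counts that left 13750 genes to be tested. By role they comprised 10 genes of origin licensing, 8 of helicase activation, 7 of the polymerases and primase, 8 of the sliding clamp, its loader and strand maturation, 4 of nucleotide supply, and 4 that copy chromatin and DNA methylation behind the fork.

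RNA was sequenced from enteroids, epithelial cultures grown from the ileum of wild-type C57Bl/6 mice, in 4 groups of 3 libraries. Untreated enteroids received neither agent. The others were given butyrate at 1 mM for 48 h, IL-13 at 20 ng/mL for 72 h, or both agents at those doses and times; the labels do not say which was added first. Butyrate is a short-chain fatty acid from gut bacteria that inhibits histone deacetylases, and IL-13 is a cytokine made by type 2 immune cells. Nothing in the labels ties a replicate to its own culture or animal, so the p-values reflect the spread among these libraries, and that spread may be technical.

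Before S phase, the origin recognition complex, with Cdc6 and Cdt1, loads the ring of Mcm2 to Mcm7 onto origins, a step called licensing. In S phase, the kinase of Cdc7 and Dbf4, Mcm10, Cdc45 and the GINS complex turn that ring into an active helicase, primase and polymerase alpha start each strand, and polymerases delta and epsilon extend it on the Pcna clamp. In the intestine these genes are expressed mainly by the dividing cells of the crypt, and E2F transcription factors control many of them.

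Library totals ran from 13867982 to 24294456 counts and were lower with IL-13 (13867982 to 15618074) than without (16303915 to 24294456). Replicates differed by more than sampling noise in every group. Epithelial markers were abundant, with 10 of 10 in the table and a summed level of 11090 to 15360 CPM (counts scaled to a common library total with edgeR's TMM), whereas 8 mesenchymal markers summed to 2.63 to 6.1 CPM and 6 immune markers to 18.6 to 25.7 CPM. Of 5 ileal markers, 4 had rows, summing to 102 to 188 CPM, and the ileal bile acid binding gene Fabp6 was not analysed here. Lars2 stood apart in butyrate replicate 2 (5048 CPM) and in butyrate + IL-13 replicate 3 (6983 CPM), against 422.8 to 1434 CPM elsewhere. Calls and counts of the 41 genes that changed without these libraries are given beside the result.

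IL-13 was compared with untreated enteroids first. Of the 41 replication genes, 40 fell and 0 rose, and Rfc5 was not called (a gene was called at an edgeR adjusted p under 0.05 over all genes tested). Among all genes tested, 43.5% were called and 21.7% were called lower. The median log2 fold change of the 41 was -1.36, against -0.01 over all genes tested, and 33 of the 41 had a log2 fold change of at most -1 (5.64% of all genes tested were called and that much lower). All 40 that fell had every IL-13 library below every untreated one, which held for 29.9% of all genes tested. The authors' deposited table of the same comparison also listed 40 of the 41 at an FDR under 0.05, all lower and with -1.37 as their median log2 fold change. In bulk RNA, fewer dividing cells and less RNA per cell cannot be told apart.

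**Figure D1:**
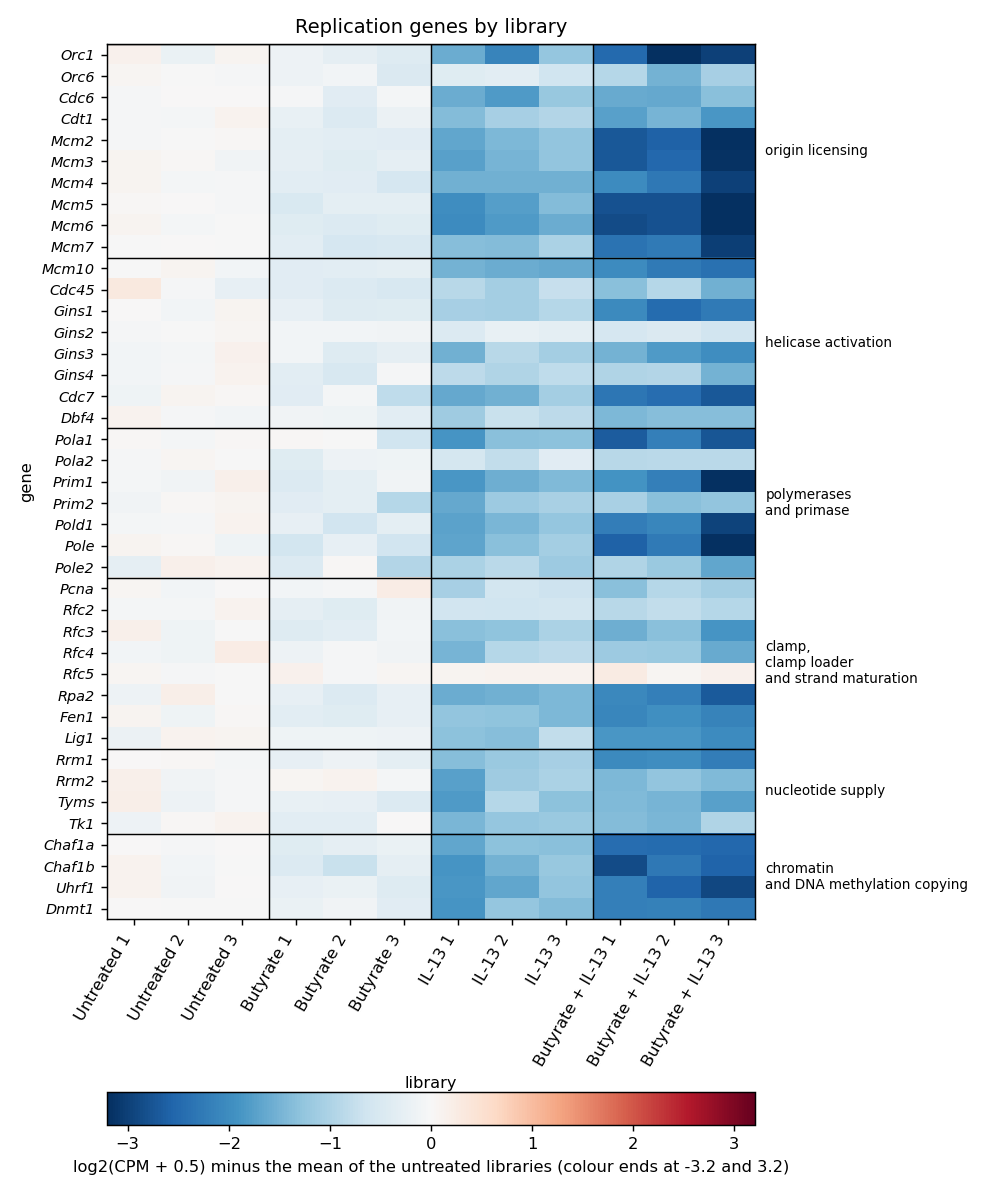
Level of the 41 replication genes (rows, by role) in the 12 libraries (columns), as log2(CPM + 0.5) minus the mean of the 3 untreated libraries; blue is lower and red is higher. Blue fills the IL-13 columns except in the row of Rfc5, and in most rows it deepens in the columns with both agents.

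The fall was seen in each role. The mean of log2(CPM + 0.5) over the 41 genes, set against the untreated mean, stood at -1.22 ± 0.17 (SD, n = 3) with IL-13, -0.28 ± 0.03 with butyrate and -1.89 ± 0.18 with both. With IL-13 it was lowest for chromatin and DNA methylation copying (-1.52 ± 0.27) and licensing (-1.40 ± 0.17), and least low for the clamp group (-0.95 ± 0.12) and helicase activation (-1.02 ± 0.10). Untreated libraries gave 0.166 to 0.172% of their counts to the 41 genes, butyrate libraries 0.136 to 0.138%, IL-13 libraries 0.0596 to 0.0733%, and those with both agents 0.0375 to 0.044%. IL-13 replicate 1 was the lowest of its group for 27 of the 41 genes, and butyrate + IL-13 replicate 3, one of the libraries high in Lars2, for 29.

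**Figure D2:**
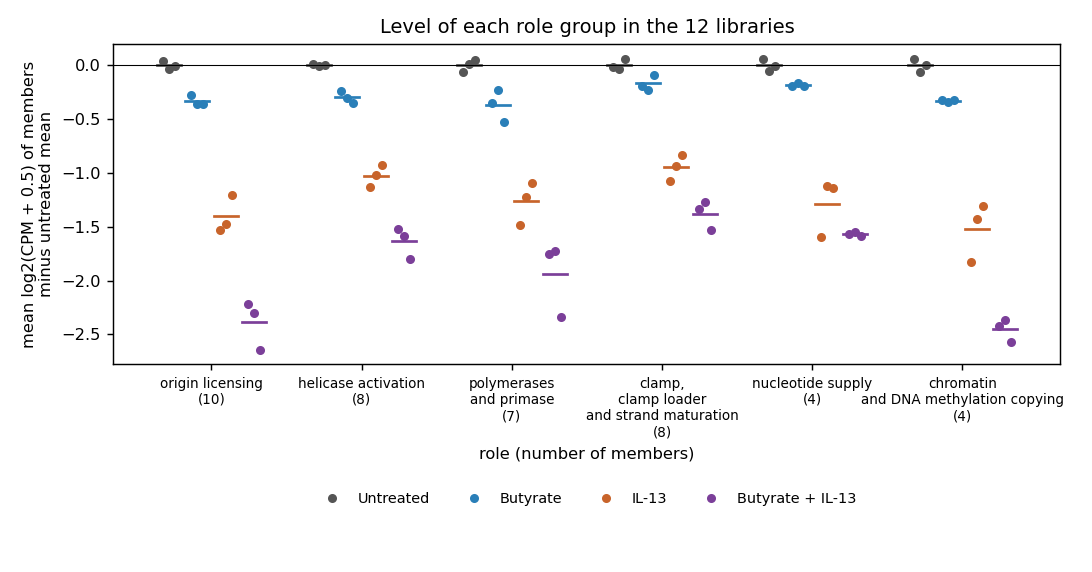
Mean log2(CPM + 0.5) of the members of each role, minus the untreated mean; points are libraries and bars are the mean of 3. Butyrate points lie a little under 0, IL-13 points lower, and points of both agents lowest except in nucleotide supply, where 1 IL-13 library (-1.60) lies level with them (-1.59 to -1.55).

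All 10 licensing genes fell with IL-13. Mcm6, a subunit of the helicase ring on chromosome 1 (ENSMUSG00000026355, 128331591 to 128359656, mm10), had the smallest adjusted p of the group. It stood at 104, 94.1 and 96.6 CPM in the untreated libraries, 75.4, 72 and 75.04 CPM with butyrate, 24, 27.5 and 32.6 CPM with IL-13, and 13.1, 13.9 and 8.41 CPM with both. The 4 groups did not overlap and followed that order. Mcm6 was 3.5-fold lower with IL-13 than without (log2 fold change -1.81 ± 0.13 SE, edgeR adjusted p = 5.4e-09). The other ring genes fell by similar amounts, with log2 fold changes from -1.28 for Mcm7 to -1.72 for Mcm5. The summed level of Mcm2 to Mcm7 went from 370 ± 9.43 CPM (SD, n = 3) to 124 ± 17.3 CPM.

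Orc6, a subunit of the origin recognition complex on chromosome 8 (ENSMUSG00000031697, 85299632 to 85308278), had the largest adjusted p of the licensing group. It stood at 19.6, 18.8 and 18.3 CPM untreated, 16.9, 17.6 and 13.5 CPM with butyrate, 14.3, 14.9 and 12.1 CPM with IL-13, and 9.81, 6.29 and 8.7 CPM with both. The IL-13 libraries lay just under the untreated ones and overlapped those with butyrate. Its log2 fold change with IL-13 was -0.46 ± 0.15 (edgeR adjusted p = 0.019). The call was lost without untreated replicate 1 (0.06) or IL-13 replicate 3 (0.094), and the adjusted p ran from 0.0021 to 0.094 over the alternatives. Orc6 shares 6.93% of its exon bases with Vps35 on the opposite strand, which had 7.92 to 29.6 counts per count of Orc6. The level of Orc6 is therefore uncertain. Orc1, the ATPase subunit of the same complex, had the lowest log2 fold change of the 41, -2.03 ± 0.35 (edgeR adjusted p = 0.00013), at 14, 8 and 21 counts with IL-13 against 107, 85 and 78 untreated. Its fellow loading factors fell too, Cdc6 by 1.61 and Cdt1 by 1.14 on the log2 scale. Of the subunits of the origin recognition complex outside the 41, Orc5 fell by 0.59 on the log2 scale with IL-13. Orc2 (-0.10), Orc3 (-0.30) and Orc4 (0.09) were not called.

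Mcm6, Mcm5, Orc1 and Cdc6 fell with IL-13 and are shown as examples of members with a match to an E2F site. Of 34 members with a RefSeq promoter window, 15 held such a site. The 250 bases before RefSeq's start site are printed 5′ to 3′ on the gene's strand, from RefSeq (GRCm38.p6, the same assembly as mm10), with matches to an E2F site in capitals. The words searched on both strands were TTTCCCGC, TTTCGCGC, TTTGCCGC and TTTGGCGC. Mcm6 (chr1:128359706-128359955, minus strand) and Mcm5 (chr8:75109259-75109508, plus strand) are helicase subunits, and Orc1 (chr4:108579204-108579453, plus strand) and Cdc6 (chr11:98907901-98908150, plus strand) are loading factors.
Mcm6: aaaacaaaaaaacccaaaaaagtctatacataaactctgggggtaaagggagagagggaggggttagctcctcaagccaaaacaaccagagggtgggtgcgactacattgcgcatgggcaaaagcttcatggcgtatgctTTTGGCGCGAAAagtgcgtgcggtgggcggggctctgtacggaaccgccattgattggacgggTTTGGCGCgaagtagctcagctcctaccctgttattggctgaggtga
Mcm5: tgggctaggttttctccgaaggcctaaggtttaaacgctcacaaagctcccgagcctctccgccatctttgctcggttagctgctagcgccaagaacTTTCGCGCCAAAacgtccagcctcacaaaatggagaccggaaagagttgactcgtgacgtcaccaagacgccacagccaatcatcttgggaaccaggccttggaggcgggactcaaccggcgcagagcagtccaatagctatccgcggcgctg
Orc1: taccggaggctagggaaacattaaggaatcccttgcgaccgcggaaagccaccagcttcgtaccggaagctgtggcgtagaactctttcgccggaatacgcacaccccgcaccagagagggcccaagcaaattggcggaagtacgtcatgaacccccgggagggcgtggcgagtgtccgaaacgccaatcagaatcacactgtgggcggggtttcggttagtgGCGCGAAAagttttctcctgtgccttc
Cdc6: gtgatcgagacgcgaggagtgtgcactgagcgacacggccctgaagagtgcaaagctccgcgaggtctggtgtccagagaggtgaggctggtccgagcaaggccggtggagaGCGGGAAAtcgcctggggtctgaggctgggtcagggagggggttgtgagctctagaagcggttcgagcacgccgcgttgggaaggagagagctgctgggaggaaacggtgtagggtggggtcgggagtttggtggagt
Mcm6 held 3 matches and Mcm5 held 2, of which a pair overlaps in each gene, with 1 word on either strand. Orc1 and Cdc6 held 1 match each. The match in Orc1 begins 27 bases before the start site (position -27) and that in Cdc6 at position -138. RefSeq's start is not always that of the count table: the whole Cdc6 stretch lies inside the gene as the table draws it, 350 bases apart from its start there, and so do the last 31 bases of the Orc1 stretch, which hold its match. These letters are a description of the sequence, and binding was not measured.

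Among helicase activation genes, 8 of 8 fell with IL-13. Mcm10, which helps to switch the loaded ring on (ENSMUSG00000026669, chromosome 2, 4989714 to 5012791), stood at 37.1, 40.1 and 35.2 CPM untreated, 29.1, 29.4 and 29.96 CPM with butyrate, 12.8, 12.2 and 11.8 CPM with IL-13, and 8.94, 7.41 and 6.73 CPM with both. The groups did not overlap, and the IL-13 libraries lay within 1 CPM of each other. Mcm10 fell by 1.61 ± 0.11 on the log2 scale with IL-13 (edgeR adjusted p = 3.2e-09). Cdc7, the kinase that fires origins, fell by 1.48 and its activator Dbf4 by 0.89. Of the GINS subunits, Gins3 fell by 1.21, Gins1 by 1.09 and Gins4 by 0.90, and the helicase cofactor Cdc45 fell by 1.09.

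Gins2, another GINS subunit (ENSMUSG00000031821, chromosome 8, 120578633 to 120589304), moved least in this group. It stood at 40.7, 41.9 and 43.6 CPM untreated, 39.8, 39.4 and 39.02 CPM with butyrate, 31.2, 35.5 and 33.6 CPM with IL-13, and 28.8, 30.1 and 27.5 CPM with both. Its groups did not overlap either, although the steps were small (log2 fold change with IL-13 -0.33 ± 0.09, edgeR adjusted p = 0.0059). Of its exon bases, 67.3% also lie in exons of Gse1 on the opposite strand. Gse1 had more counts than Gins2 in every library (ratio 1.33 to 2.04), and its own log2 fold change with IL-13 was 0.01. The libraries were made with a directional kit per the labels, but whether counting used strand is not stated there, so the level of Gins2 is uncertain.

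All 7 polymerase and primase genes fell with IL-13. Pold1, the catalytic subunit of polymerase delta (ENSMUSG00000038644, chromosome 7, 44532746 to 44548849), stood at 43.7, 44.2 and 49.6 CPM untreated, 37.8, 29.7 and 36.98 CPM with butyrate, 13.7, 16.2 and 19.1 CPM with IL-13, and 9.49, 10.4 and 5.49 CPM with both. Every IL-13 library lay under every library without IL-13. Pold1 fell by 1.49 ± 0.17 on the log2 scale (edgeR adjusted p = 1e-06). Prim1, which makes the RNA primer, fell by 1.70, its partner Prim2 by 1.36, the polymerase alpha catalytic gene Pola1 by 1.57, and Pole, the catalytic subunit of polymerase epsilon, by 1.43. Pola2, the other polymerase alpha subunit, fell by 0.58.

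Pole2, an accessory subunit of polymerase epsilon (ENSMUSG00000020974, chromosome 12, 69201779 to 69228190), was the member with the fewest counts, at 28, 44 and 31 counts untreated, 26, 31 and 10 with butyrate, 7, 9 and 6 with IL-13, and 7, 5 and 2 with both. On the CPM scale these were 1.18, 1.78 and 1.72, then 1.02, 1.61 and 0.566, then 0.505, 0.618 and 0.408, then 0.554, 0.398 and 0.146. IL-13 libraries lay under all untreated ones, but overlapped those with butyrate and those with both agents. Its log2 fold change with IL-13 was -1.59 ± 0.47 (edgeR adjusted p = 0.01), with the widest error of the 41.

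Of the 8 genes of the clamp, its loader and strand maturation, 7 fell with IL-13. Fen1, the nuclease that trims the flaps of lagging-strand fragments (ENSMUSG00000024742, chromosome 19, 10199132 to 10204169), stood at 112, 94.9 and 107 CPM untreated, 82.5, 79.8 and 87.3 CPM with butyrate, 43.1, 42.5 and 38.5 CPM with IL-13, and 24.1, 26.6 and 23.2 CPM with both. The groups did not overlap. Fen1 fell by 1.34 ± 0.09 on the log2 scale with IL-13 (edgeR adjusted p = 2.1e-09). Lig1, the ligase that seals those fragments, fell by 1.20, and Rpa2, which coats single strands, by 1.59. Pcna, the clamp, fell by 0.76, and of the loader genes Rfc3 fell by 1.30, Rfc4 by 1.13 and Rfc2 by 0.63. Rfc4 shares 12.7% of its exon bases with Eif4a2 on the opposite strand, which had 21.75 to 79.4 counts per count of Rfc4. The level of Rfc4 is therefore uncertain.

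Rfc5, a small subunit of the clamp loader (ENSMUSG00000029363, chromosome 5, 117378103 to 117389047), went against the rest. It stood at 66.01, 62.4 and 62.6 CPM untreated, 70.3, 61.6 and 66.3 CPM with butyrate, 67.2, 69 and 68.95 CPM with IL-13, and 76.9, 66.98 and 70.4 CPM with both. Every IL-13 library was a little above every untreated one, yet the log2 fold change of 0.10 ± 0.08 was not called (edgeR adjusted p = 0.34, with 0.24 to 0.55 over all alternatives), and it was -0.06 when libraries were scaled by plain totals. Per untreated library it had 5.88 to 6.91 counts for each count of Rfc3, another loader subunit, against 14.7 to 18.3 per IL-13 library and 18.3 to 30.1 per library with both agents. Of its exon bases, 10.7% overlap Wsb2 on the opposite strand, which had 1.53 to 2.56 counts per count of Rfc5. The log2 fold change of Wsb2 with IL-13 was 0.69. The level of Rfc5 is therefore uncertain. The 250 bases before its RefSeq start (chr5:117389024-117389273, minus strand, the same window and build as above) is shown because Rfc5 is the member that did not fall.
Rfc5: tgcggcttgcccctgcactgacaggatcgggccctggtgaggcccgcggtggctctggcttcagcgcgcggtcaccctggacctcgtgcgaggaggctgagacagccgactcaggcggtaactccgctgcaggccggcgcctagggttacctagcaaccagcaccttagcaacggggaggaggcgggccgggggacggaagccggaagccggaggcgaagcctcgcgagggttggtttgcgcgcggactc
It held 0 matches to the E2F words, so no letters are in capitals. Rfc5 is 1 of 19 members without an E2F site in their RefSeq windows. The median log2 fold change of those 19 with IL-13 was -1.31.

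The levels of Fen1 and Pcna are uncertain, because other rows of the table can share their reads. Gm10143, an antisense gene, covers 78.8% of the exon bases of Fen1, and its counts were 0.827 to 0.911 of those of Fen1 in all 12 libraries. Its log2 fold changes ran beside those of Fen1 in each comparison, for example -1.30 with IL-13. Pcna-ps2, a processed pseudogene of Pcna on another stretch of genome (chromosome 19), had 54050 counts over the 12 libraries against 10986 for Pcna itself. Its level went from 316 ± 22.8 CPM untreated to 173 ± 17 CPM with IL-13. When both rows were counted as 1 gene, a choice made after their counts were seen, Pcna fell by 0.85 ± 0.08 on the log2 scale with IL-13 (edgeR adjusted p = 2.4e-07), against 0.76 for its own row.

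**Figure D3:**
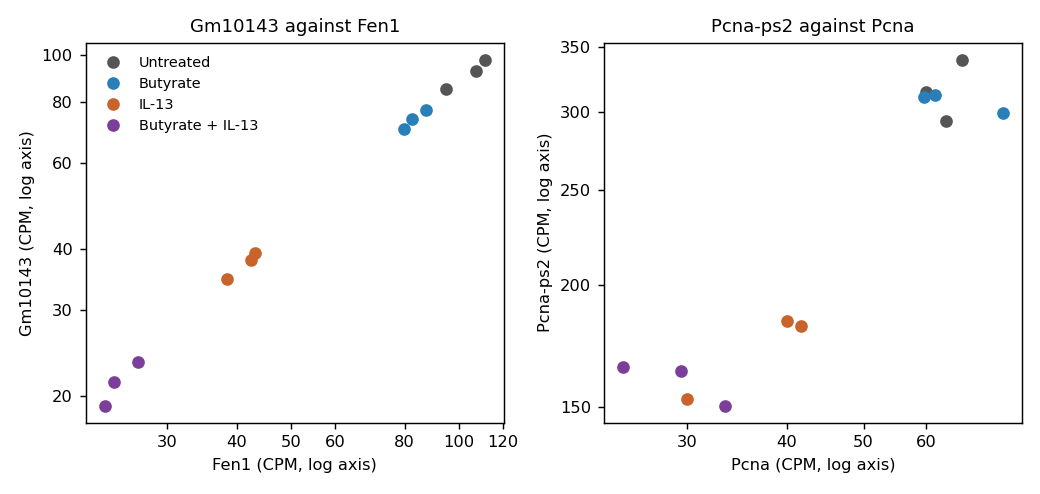
Level of Gm10143 against Fen1 (left) and of Pcna-ps2 against Pcna (right), in CPM on log axes; each point is 1 of the 12 libraries, coloured by group. The left points lie along a line with 0.827 to 0.911 counts of Gm10143 per count of Fen1; on the right the ratio runs from 4 to 6.62.

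All 4 nucleotide supply genes fell with IL-13, by 1.21 to 1.39 on the log2 scale. Rrm1, the large subunit of ribonucleotide reductase (ENSMUSG00000030978, chromosome 7, 102441695 to 102469771), stood at 116, 117 and 109 CPM untreated, 94.97, 102 and 92.3 CPM with butyrate, 43.8, 49.4 and 54.7 CPM with IL-13, and 27.5, 28.3 and 24.1 CPM with both. The groups did not overlap (log2 fold change with IL-13 -1.21 ± 0.09, edgeR adjusted p = 1e-08). Tyms, which makes thymidylate (ENSMUSG00000025747, chromosome 5, 30058202 to 30073617), stood at 13.8, 10.7 and 11.6 CPM untreated, 10.1, 9.83 and 8.78 CPM with butyrate, 3.03, 6.11 and 4.56 CPM with IL-13, and 4.19, 3.98 and 3.22 CPM with both. The libraries with both agents lay within the range of the IL-13 replicates, and all 6 lay under the libraries without IL-13. Tyms fell by 1.39 ± 0.20 on the log2 scale with IL-13 (edgeR adjusted p = 2.3e-05).

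All 4 genes that copy chromatin and DNA methylation fell with IL-13, by 1.45 to 1.62 on the log2 scale. Chaf1a, the large subunit of the histone chaperone CAF-1 (ENSMUSG00000002835, chromosome 17, 56040416 to 56068026), stood at 64.8, 62.2 and 64.9 CPM untreated, 48.4, 51.9 and 55.2 CPM with butyrate, 19.8, 25.4 and 25.1 CPM with IL-13, and 11.4, 11.2 and 10.8 CPM with both. The groups did not overlap (log2 fold change with IL-13 -1.45 ± 0.10, edgeR adjusted p = 3.8e-09). Chaf1a shares 52.5% of its exon bases with Ubxn6 on the opposite strand, whose log2 fold change with IL-13 was -0.31, so its level is uncertain. Its partner Chaf1b (ENSMUSG00000022945, chromosome 16, 93883901 to 93906115) stood at 15.8, 13.7 and 14.5 CPM untreated, 10.7, 8.79 and 11.8 CPM with butyrate, 3.61, 4.81 and 5.99 CPM with IL-13, and 1.58, 2.63 and 2.05 CPM with both, again without overlap. Chaf1b fell by 1.61 ± 0.19 on the log2 scale (edgeR adjusted p = 2.2e-06). Uhrf1, which finds hemimethylated DNA, and Dnmt1, the maintenance methyltransferase, fell by 1.62 and 1.49.

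Butyrate alone was compared with untreated enteroids next. Fen1 and Mcm10 fell, and none of the 41 rose. Among all genes tested 7.9% were called and 2.76% were called lower, so that the count of 2 is near the background. Fen1 fell by 0.33 ± 0.09 and Mcm10 by 0.35 ± 0.11 on the log2 scale (edgeR adjusted p = 0.025, and 0.05 after rounding from just under the threshold). Both were 1.26-fold and 1.27-fold lower, and in both every butyrate library lay under every untreated one. Fen1 lost its call without untreated replicate 1 (0.12) or 3 (0.11) and without butyrate replicate 1 (0.098) or 2 (0.068), with 0.0064 to 0.12 over all alternatives. The level of Fen1 is uncertain here too, and its antisense gene Gm10143 fell by 0.31 on the log2 scale (edgeR adjusted p = 0.04). Mcm10 lost its call under 17 of the alternatives, among them each single untreated or butyrate library left out (0.06 to 0.23), with 0.021 to 0.23 over all. DESeq2 called 6 of the 41. Without both libraries high in Lars2, edgeR also called 6, which were Fen1, Mcm6 (0.023), Mcm2 (0.034), Mcm4 (0.016), Mcm7 (0.039) and Pole (0.021), but not Mcm10 (0.063). At an unadjusted p under 0.05, edgeR had 21 of the 41, all lower. The share of all genes tested at that cut was not counted, so this count has no background beside it.

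Most other replication genes lay slightly below untreated levels without passing the test. Of the 41, 38 had a negative log2 fold change with butyrate, as had 7215 of the 13750 genes tested. The median of the 41 was -0.30, against -0.01 over all genes tested. In 28 of the 41 the butyrate libraries all lay below the untreated ones, which held for 14% of all genes tested. Pole2 (-0.54 ± 0.40), Prim2 (-0.53 ± 0.19) and Cdc45 (-0.52 ± 0.24) had the lowest values, with edgeR adjusted p of 0.49, 0.1 and 0.22. The ring genes Mcm7 (-0.47) and Mcm6 (-0.41) had edgeR adjusted p of 0.051 and 0.052, just over the threshold, and were called lower under 8 alternatives (0.016 to 0.049) and 7 alternatives (0.012 to 0.045). Mcm2 was called under 5 (0.024 to 0.041), Mcm4 under 4 (0.014 to 0.046), Chaf1a under 4 (0.026 to 0.04), and Mcm5 (0.039) and Pole (0.021) under 1 each. Rfc5, Pcna and Rrm2 had positive values of 0.05, 0.04 and 0.03; with plain library totals Rfc5 stood at -0.01.

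Both agents were then compared with IL-13 alone, which asks what butyrate changed in enteroids that also received IL-13. Of the 41 replication genes, 26 fell further and 0 rose, where 21.2% of all genes tested were called and 11.3% were called lower. The median log2 fold change of the 41 was -0.75 against -0.01 over all genes tested. In 29 of the 41 every library with both agents lay below every IL-13 library, which held for 19.1% of all genes tested. This comparison and that of IL-13 with untreated enteroids share the 3 IL-13 libraries, so their values for a gene are not independent.

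Of the licensing genes 9 of 10 fell, and their median log2 fold change was -1.29. Mcm2 went from 29.2, 33.7 and 38.5 CPM with IL-13 to 13.8, 14.9 and 9.8 CPM with both (log2 fold change -1.40 ± 0.13, edgeR adjusted p = 1.5e-06), and had stood at 90.4, 92.4 and 95.5 CPM untreated. Mcm7 fell by 1.36, Mcm3 by 1.34, Mcm5 by 1.33, Mcm6 by 1.25 and Mcm4 by 0.88. The sum of Mcm2 to Mcm7 stood at 51.2 ± 12.5 CPM (SD, n = 3) with both agents, with 36.9 CPM in butyrate + IL-13 replicate 3. Orc1 had 4, 0 and 1 counts in the libraries with both. Its fitted log2 fold change of -2.89 ± 0.64 (edgeR adjusted p = 0.0036) rests on so few counts that it went to -4.46 without butyrate + IL-13 replicate 1.

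Cdc6 was the licensing gene that was not called. It stood at 13.7, 14.1 and 14.1 CPM untreated, 4.33, 3.64 and 5.72 CPM with IL-13, and 4.27, 4.14 and 5.19 CPM with both, so the last groups overlapped fully (log2 fold change -0.01 ± 0.20, edgeR adjusted p = 0.99). Its counts per count of Mcm2 to Mcm7 together were 0.036 to 0.0389 in untreated libraries and 0.0301 to 0.0402 with IL-13, but 0.0697 to 0.141 with both. In nucleotide supply 1 of 4 genes fell: Rrm1 fell by 0.89 ± 0.10 (edgeR adjusted p = 7.9e-06). Rrm2, the small reductase subunit, stood at 24.2, 36.9 and 40.3 CPM with IL-13 and 29.7, 34 and 30.4 CPM with both (log2 fold change -0.11 ± 0.14, edgeR adjusted p = 0.65). The counts of Rrm2 per count of Rrm1 were 0.551 to 0.793 without butyrate, 0.845 to 0.903 with butyrate and 1.08 to 1.26 with both. Tk1, the thymidine kinase (0.04 ± 0.14, edgeR adjusted p = 0.88), and Tyms (-0.27 ± 0.23, edgeR adjusted p = 0.44) were not called either. These ratios were chosen after the values were seen and carry no test.

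Helicase activation genes fell in 5 of 8 cases, led by Gins1 (log2 fold change -1.44) and Cdc7 (-1.25). Gins3 fell by 0.67 (edgeR adjusted p = 0.028), a call lost under 6 alternatives (0.063 to 0.14), with 0.011 to 0.14 over all. Those were a fit without the other groups, a fit without replicate 2 or 3 of either group compared, and one without both libraries high in Lars2. Polymerase and primase genes fell in 4 of 7 cases, with Pole at -1.50, Pola1 at -1.17 and Pold1 at -0.96. Prim1 (-0.94, edgeR adjusted p = 0.038) also lost its call under 6 alternatives, with 0.0097 to 0.16 over all, and stood at -0.50 without butyrate + IL-13 replicate 3 (0.16). It lost the call also without IL-13 replicate 2 (0.091) or 3 (0.14), when the other groups were left out of the fit (0.081), with a replicate block (0.052) and without both libraries high in Lars2 (0.14). Prim2, its partner in primase, had a log2 fold change of 0.06 ± 0.23.

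In the clamp group 3 of 8 fell: Lig1 by 0.87, Rpa2 by 0.85 and Fen1 by 0.75. Pcna (-0.35, edgeR adjusted p = 0.074) and the loader genes Rfc3 (-0.43), Rfc4 (-0.29), Rfc2 (-0.26) and Rfc5 (0.06) were not called. Pcna was called with plain library totals (0.015) and without butyrate replicate 3 (0.04), IL-13 replicate 1 (0.02) or butyrate + IL-13 replicate 2 (0.04). Counted together with its pseudogene it stood at -0.15 ± 0.09 (edgeR adjusted p = 0.22). All 4 chromatin and methylation genes fell, Chaf1b by 1.20, Chaf1a by 1.08, Uhrf1 by 1.01 and Dnmt1 by 0.76.

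**Figure D4:**
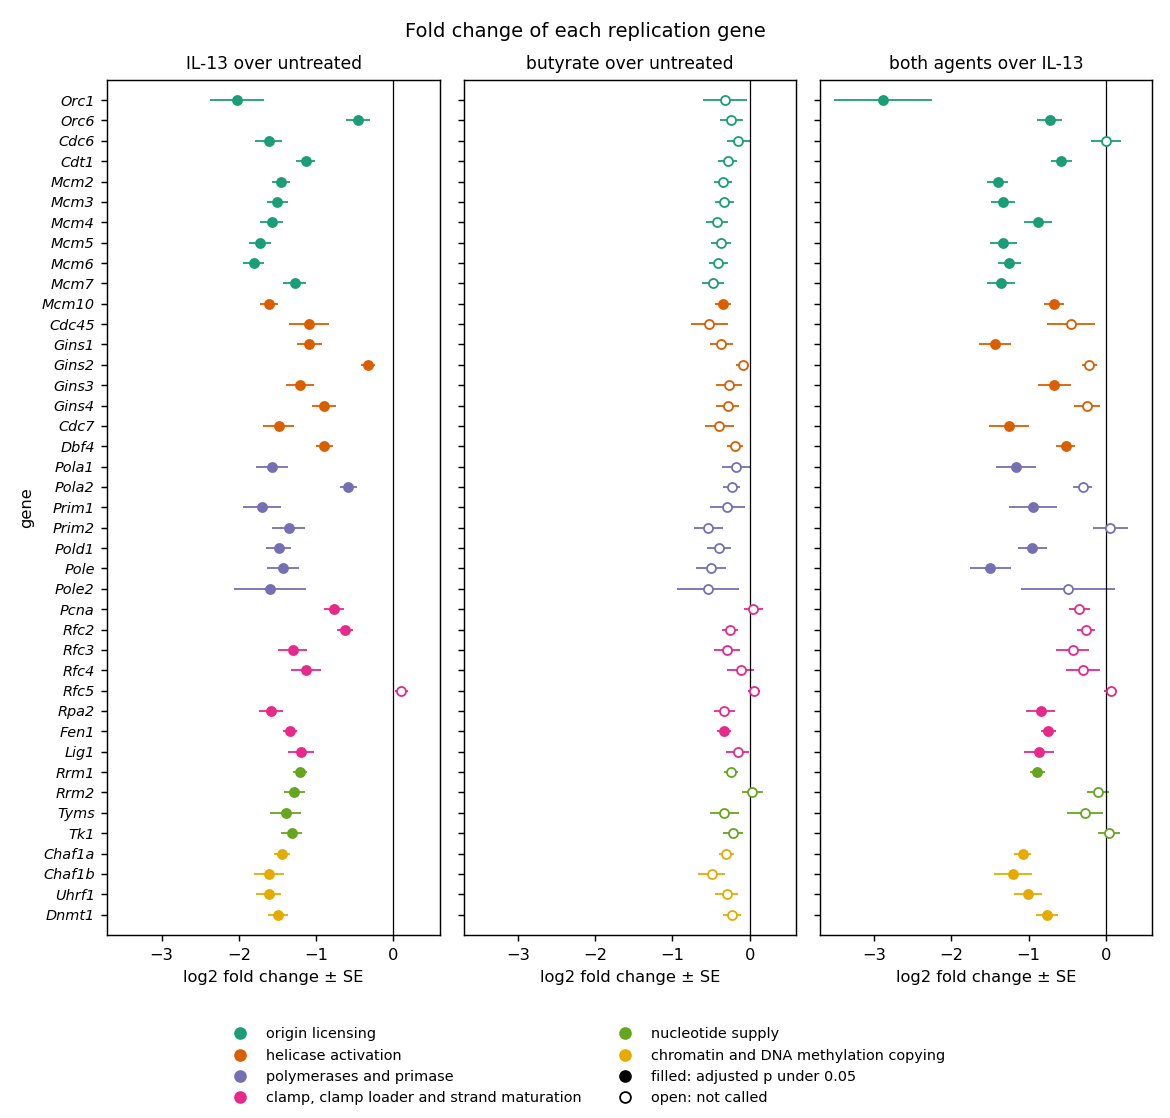
Log2 fold change ± SE of each replication gene, coloured by role, for IL-13 over untreated, butyrate over untreated and both agents over IL-13; filled points have an edgeR adjusted p under 0.05. In the left panel 40 of 41 points are filled and left of 0, in the middle panel 2, and in the right panel 26, with Cdc6, Rrm2, Tk1, Prim2 and Rfc5 near 0.

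Both agents over butyrate gave 40 of 41 genes lower and 0 higher, where 47.7% of all genes tested were called and 24.9% were called lower, with Rfc5 again not called. The median log2 fold change was -1.86. In those 40 the groups did not overlap either, which held in that direction for 26.8% of all genes tested. Without both libraries high in Lars2, Cdc45 (0.058), Prim2 (0.06) and Pole2 (0.32) lost their calls, and the log2 fold change of Pole2 went from -1.55 to -0.76; Pole2 lost it also without butyrate replicate 2 (0.11) or butyrate + IL-13 replicate 3 (0.12). Orc1 went from -4.59 to -6.16 without butyrate + IL-13 replicate 1.

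Against untreated enteroids, both agents lowered 40 of 41 genes and raised 0, where 59.7% of all genes tested were called and 31.5% were called lower. The median log2 fold change was -2.09, and 37 of the 41 had a log2 fold change of at most -1, where 12.7% of all genes tested were called and that much lower. In 40 the groups did not overlap with both agents lower, which held for 35.1% of all genes tested. Mcm6 was 8.35-fold and Mcm2 7.25-fold lower, Fen1 4.25-fold. Orc1 stood at -4.91, and at -6.47 without butyrate + IL-13 replicate 1. Rfc5 had a log2 fold change of 0.17 ± 0.08 (edgeR adjusted p = 0.095). It was called higher with RLE scaling (0.047) and with DESeq2 (0.034), and its log2 fold change was -0.13 with plain library totals.

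The interaction term tested whether the change with butyrate differed between enteroids with and without IL-13. It was called for 6 of the 41 genes, all of them more negative with IL-13, where 0.865% of all genes tested were called and 0.611% were called in that direction. Mcm2 had the smallest adjusted p: its log2 change with butyrate was -0.35 without IL-13 and -1.40 with it, a difference of -1.06 ± 0.17 (edgeR adjusted p = 0.0059), and it kept its call under each alternative run. Mcm3 (-1.01), Mcm5 (-0.96), Mcm6 (-0.85), Chaf1a (-0.78) and Rrm1 (-0.65) had edgeR adjusted p of 0.019, 0.04, 0.044, 0.018 and 0.023. Each of these 5 lost its call under some alternative, with 1 to 8 of the 41 called when single libraries were left out and 3 without both libraries high in Lars2 (Mcm5 0.13, Mcm6 0.061 and Rrm1 0.075 then lost theirs). At an unadjusted p under 0.05, 21 of the 41 were lower and 0 higher. The shares of all genes given above are at the adjusted threshold, and the share at this cut was not counted.

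In untreated enteroids, levels per kilobase of exon (CPM per kb) set the genes in an order. The places of genes that can share reads with other rows are uncertain, among them Fen1, Pcna, Gins2, Chaf1a, Orc6, Rfc4, Rfc5, Mcm7 and Cdc45. Exon length took in the exons of all annotated transcripts of a gene, so the other places are approximate. By its own row Fen1 was highest at 43.2 ± 3.57 (SD, n = 3), followed by Rrm2 at 29.7 ± 3.05, Pcna at 26.4 ± 1.35 and Mcm6 at 21.1 ± 1.13; Rrm2 and Pcna did not differ beyond their spread. Ring genes lay between Mcm6 and Mcm7 at 6.85 ± 0.021. Orc1 (1.18), Cdc45 (1.14) and Pole2 (0.54) were lowest. With both agents Rfc5, at 13.6 ± 0.44 untreated, stood at 15.3 ± 1.08, beside 12.2 ± 1.78 for the row of Pcna, 11.3 ± 0.83 for Rrm2, 10.2 ± 0.73 for the row of Fen1 and 2.53 ± 0.63 for Mcm6. Counted together with its pseudogene, over the exon length of Pcna, Pcna stood at 158 ± 10.3 CPM per kb untreated and 78.7 ± 1.85 with both agents, above all the other members in either group.

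RefSeq windows of 300 bases, 250 before and 50 after a start, were found for 34 of the 41 genes, 6 of which had several starts (42 windows in all); Gins1, Gins2, Gins4, Pole, Rfc2, Mcm4 and Prim2 were not matched. An E2F site stood in any window of 15 of the 34 (44.1%), against 2.6% of the 27025 genes with a window. With only the most upstream start of each gene, a choice made after the matches were seen, it stood in 12 (35.3%), against 2.33%, since the matches of Dnmt1, Lig1 and Uhrf1 lay at other starts. The 15 were Cdc6, Cdt1, Dnmt1, Gins3, Lig1, Mcm3, Mcm5, Mcm6, Mcm7, Orc1, Pola1, Pold1, Pole2, Rfc3 and Uhrf1. The CHR element (TTTGAA or TTCGAA, both strands), a mark of late cell cycle genes, stood in 9 (26.5%), against 21.7% of all genes, and the CCAAT box (CCAAT) in 20 (58.8%), against 41.1%. Among 25 mitosis genes with a window the shares were the other way round, 4.0% with an E2F site and 80% with a CHR element. The median log2 fold change with IL-13 was -1.50 for the 15 genes with an E2F site and -1.31 for the 19 without, and with both agents over IL-13 -0.96 and -0.67, with ranges that overlap widely. No test was run on these values.

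Further genes of the replication pathway were counted beside the 41. Of 98 such genes in 5 lists, 72 fell and 1 rose with IL-13 (median log2 fold change -0.65), where 21.7% of all genes tested were called lower. The lists with the lowest medians were fork protection and the S phase checkpoint (18 of 22 lower, median -0.88) and other nucleotide genes (16 of 20 lower, 1 higher, median -0.69). The least low was that of other origin and helicase genes (11 of 16 lower, median -0.50). Pclaf, a Pcna-binding factor, went from 123 ± 8.45 to 32.1 ± 3.93 CPM (SD, n = 3), Chtf18, of an alternative clamp loader, from 20.3 ± 2.55 to 4.29 ± 0.93 CPM, and Dut, which removes dUTP, from 60.9 ± 3.82 to 22.1 ± 2.89 CPM. Asf1b, a histone chaperone, fell by 1.69 and Wdhd1, which links helicase and polymerase alpha, by 1.72 on the log2 scale. Nme2, a nucleoside diphosphate kinase, rose by 0.39 (edgeR adjusted p = 0.0081), a call lost with plain library totals (0.12).

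With butyrate alone 2 of the 98 fell, Umps and Mms22l, beside 2.76% called lower among all genes tested, so that the count is near the background. With both agents over IL-13, 43 fell and 1, the polymerase delta subunit gene Pold4, rose, with a median of -0.32, where 11.3% of all genes tested were called lower. The interaction was called for 3 of the 98, all more negative with IL-13, where 0.611% of all genes tested were: Timeless (-1.53 ± 0.28, edgeR adjusted p = 0.012), Clspn (-1.34 ± 0.23, edgeR adjusted p = 0.0073), both of the fork protection machinery, and Hells (-1.41 ± 0.30, edgeR adjusted p = 0.031), a chromatin remodeller. Clspn, Hells, Umps, Mms22l and Pold4 were named after their values were seen. Timeless went from 16 ± 0.26 CPM untreated to 13.6 ± 0.85 with butyrate, 5.02 ± 0.57 with IL-13 and 1.48 ± 0.54 CPM with both.

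Mitosis genes, chosen as a list from a later cell cycle phase, had a similar median with IL-13 and a higher one with both over IL-13. All 30 fell with IL-13 (median log2 fold change -1.29), with butyrate the 30 values were all negative and small, none of them called (median -0.19, lowest -0.36), and 22 fell with both over IL-13 (median -0.54, against -0.75 for the replication genes). For the interaction the median was -0.39, against -0.46. The difference between the lists was not tested. Mki67, the Ki-67 proliferation antigen, stood at 293.8, 291.2 and 295.2 CPM untreated, 293.9, 318.7 and 246.7 CPM with butyrate, 88.6, 148.2 and 130.1 CPM with IL-13, and 73.2, 81.9 and 81.7 CPM with both. Its libraries with both agents lay below those with IL-13, and untreated and butyrate libraries overlapped.

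**Figure D5:**
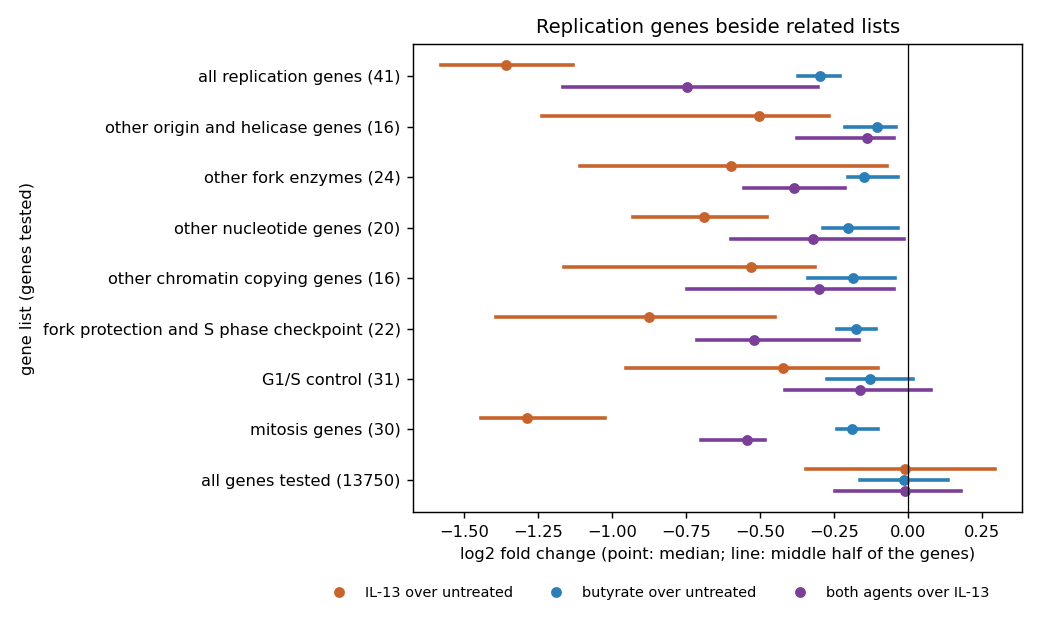
Median log2 fold change (points) and the range between the quartiles (lines) for the 41 replication genes, related lists and all 13750 genes tested, in 3 comparisons. The replication and mitosis genes have the lowest medians with IL-13 (-1.36 and -1.29), and the replication genes the lowest with both over IL-13 (-0.75).

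Regulators of entry into S phase were counted as a further list. Of 31 genes, 19 fell and 1 rose with IL-13 (median log2 fold change -0.42), where 21.7% of all genes tested were called lower. E2f1, an activator of replication genes, went from 23.9 ± 1.22 to 8.68 ± 0.35 CPM (SD, n = 3) with IL-13 and 3.71 ± 1.63 CPM with both, and the E2F repressor E2f8 from 42.6 ± 2.22 to 11.4 ± 1.87 and 5.65 ± 1.35 CPM. The cyclin E genes Ccne1 and Ccne2 fell by 1.00 and 1.47 on the log2 scale with IL-13, Ccnd1, cyclin D1, by 0.34 and Myc, a growth regulator, by 0.42. Cdkn1a, which encodes the cyclin-dependent kinase and Pcna inhibitor p21, was the gene that rose. It stood at 443 ± 6.92 CPM untreated, 695 ± 34.8 with butyrate, 1404 ± 92.9 with IL-13 and 1995 ± 37.9 CPM with both, and the groups did not overlap. Gmnn, the inhibitor of Cdt1, was not called in any comparison, although with plain library totals it was called for both agents over butyrate (0.028). It stood at 16.5 ± 2.05 CPM untreated, 18.5 ± 1.15 with butyrate, 14.6 ± 2.37 with IL-13 and 16.7 ± 1.54 CPM with both.

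Stem cell markers moved in both directions. The summed level of 10 markers, none at 0 in any group, ran from 1406 to 1513 CPM untreated, from 1214 to 1484 CPM with butyrate, from 900.5 to 985.2 CPM with IL-13 and from 649 to 732 CPM with both. With IL-13, 5 of the 10 fell (Lgr5, Smoc2, Axin2, Slc12a2 and Lrig1) and 0 rose, and 3 of the others had positive values. Among all genes tested, 21.7% were called lower in that comparison. With butyrate Olfm4 and Axin2 fell and Lgr5, the stem cell receptor, rose by 1.52 on the log2 scale (edgeR adjusted p = 0.0015). With both over IL-13, 6 fell and Smoc2 rose by 0.41 (edgeR adjusted p = 0.015), where 11.3% of all genes tested were called lower.

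Absorptive enterocyte markers were mixed as well. The 12 summed to between 5645 and 6294 CPM untreated, 7985 and 8698 CPM with butyrate, 8370 and 8918 CPM with IL-13, and 9970 and 13220 CPM with both. With IL-13, 7 rose, where 2997 of the 13750 genes tested were called higher. Fabp2 and Lct fell by 1.89 and 1.24 on the log2 scale. With both over IL-13, 6 rose, where 1355 of the 13750 genes tested were called higher. Fabp1 and Fabp2, fatty acid binding genes, fell by 0.72 and 0.94. Of 8 genes that track ribosomal RNA carry-over and stress, 6 rose with IL-13 (Atf3, Jun, Fos, Ddit3, Hspa1a and Hspa1b). With both over IL-13, 3 rose (Atf3, Ddit3 and Egr1). Lars2, also of this list, was not called in either comparison (log2 fold change 0.12 ± 0.91 and 1.71 ± 0.94). The part of these genes in the change of the replication genes was not tested.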

How the data were processed

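RNA-seq libraries were made with a directional poly(A) kit per the labels. The deposited table holds raw counts per gene for 12 libraries, with the authors' own DESeq p-values and log2 fold changes for untreated against IL-13, and it lists the genes with a corrected p below 1 there, per the file headers. Per the submitters' processing notes, mm10 was the build; the sources used here name no aligner or counter and no use of strand in counting. Its 18092 rows were summed by symbol and gene ID to 18068 genes (23 genes had several rows). Counts were fitted with edgeR 4.0.16 (TMM, filterByExpr, robust quasi-likelihood test, 1 coefficient per group) in R 4.3.3 with limma 3.58.1, and p-values were adjusted (Benjamini-Hochberg) over 13750 genes. The fit left 8 residual degrees of freedom and estimated the biological coefficient of variation at 10.2%. CPM are counts over TMM-scaled totals. Levels over several genes are means of log2(CPM + 0.5), and ratios are descriptions. The fit was tested on simulated data in which few genes were changed, and only in the IL-13 libraries. That test does not check the scaling where many genes change, as they do here. Levels and figures were computed in Python 3.11.15 (with pandas 2.3.3 and numpy 2.4.6) and drawn with matplotlib 3.10.9.

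The members and all lists were chosen with earlier results of these data known. In each role the genes with the smallest and the largest adjusted p for IL-13 over untreated, and any member called where 5 or fewer were, are given by library. From each pathway list come up to 3 called genes of smallest adjusted p in each direction, genes called against their list, and fixed cell cycle genes. Values of Cdc6, Orc1, Mcm2, Rrm2, Prim2, Tk1 and Orc2 to Orc5, the ratios, and the antisense and pseudogene partners were added after values were seen.

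Alternatives were RLE scaling, plain library totals, no filter, a mean of at least 50 counts, only the groups compared, a replicate block, thinning to the lowest total, each library left out, DESeq2 1.42.0 and pseudocounts of 0.1 and 2. Leaving out both libraries high in Lars2, counting Pcna with Pcna-ps2 and using only the most upstream start of each gene were added after the data were seen.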

Additional observations from a re-analysis of the deposited data

Results flagged for a closer look

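The interaction term differed from 0 for 6 replication genes, so that the log2 change with butyrate was lower in enteroids that also received IL-13 than in those that did not. The difference was -1.06 for Mcm2, -1.01 for Mcm3, -0.96 for Mcm5, -0.85 for Mcm6, -0.78 for Chaf1a and -0.65 for Rrm1. Butyrate + IL-13 replicate 3, high in Lars2, was the lowest of its group for all 6 genes, and without it 1 of the 41 was called. The count was also 1 without untreated replicate 2 or IL-13 replicate 2 or 3, 2 without untreated replicate 3 or butyrate replicate 1, and 3 without untreated replicate 1. The part of single libraries in the result was not tested further.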

How the results depend on the processing

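With IL-13, 37 to 40 of the 41 genes were called lower under the alternatives (39 to 40 with single libraries left out). The low end here and for both over untreated came with the filter at a mean of at least 50 counts. That filter left Orc1, Cdc45 and Pole2 untested. The range was 23 to 30 for both agents over IL-13 (24 to 27), 37 to 40 for both over butyrate (39 to 40) and 37 to 40 for both over untreated (40), where RLE scaling and DESeq2 also called Rfc5 higher, and no direction was reversed for a called value. The butyrate count of 2 rested on the setting: it was 1 with RLE scaling, thinned libraries or Pcna counted with its pseudogene, 6 with plain library totals, only the groups compared, DESeq2 or both libraries high in Lars2 left out, and 0 to 6 with single libraries left out. The interaction count of 6 was 3 without both libraries high in Lars2 and 1 to 8 with single libraries left out. Only the most upstream start of each gene left 12 of 15 members with an E2F site. The cause was not tested.

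Same-numbered replicates did not deviate together (correlations -0.151 to 0.097), so the numbers were not taken as pairs; with the replicate block the butyrate count was 1 and the interaction count 4. The mean level over the 41 genes moved with butyrate from -0.28 to -0.26 (pseudocount 2) and -0.35 (plain totals), and with both agents from -1.89 to -1.63 and -2.16. With plain totals the median log2 fold change of all genes was -0.18 with IL-13, against -0.01 in the main fit. For both agents over untreated it was -0.34, against -0.05. Over all genes, the 1086 calls with butyrate became 559 to 1395 and the 119 interaction calls 55 to 213 with single libraries left out, and 245 interaction calls with DESeq2. The 2912 calls of both over IL-13 became 1935 without butyrate + IL-13 replicate 3. Pole2 and Orc1, with 206 and 524 counts in all, are limited by depth.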
